A study of Mus musculus with 9 samples.

Results

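Transcript levels of 9 genes of the MYC and MAX network, Myc, Mycl, Mycn, Max, Mxd1, Mxd4, Mxi1, Mnt and Mlx, were measured in splenic type 2 dendritic cells of young and adult mice. The genes were chosen by symbol from 24054 genes listed for each library, and all 9 were among the 14452 genes tested, whose counts averaged 1 or more per library. Bulk mRNA was sequenced in 9 libraries of C57BL/6 mice that all carried Clec9a-Cre/Cre and Rosa-tdTomato/tdTomato, so that Cre made from the Clec9a locus leaves a permanent TOMATO mark in cells that descend from Clec9a-expressing dendritic cell progenitors. Live, single, autofluorescence-negative MHCII+ CD11c+ CD11b+ cells were sorted by TOMATO. At 8 days of age, with spleens pooled, TOM+ cDC2 and TOM- DC2 gave 3 libraries each, and TOM+ cDC2 of adults of 8 or 9 weeks gave 3 more. Comparing the young groups asks about origin at a fixed age, and comparing either with adults asks about age, which for TOM- DC2 goes together with origin. According to the paper, cDC2 high in the surface marker ESAM made up a slightly smaller share at this age than in adults. Comparisons with adults therefore also carry a difference in subset mix.

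MYC proteins bind DNA as dimers with MAX and activate genes of ribosome production, metabolism and cell division. MXD1, MXD4, MXI1 and MNT also dimerize with MAX at the same E-box sites and recruit SIN3 and histone deacetylases, which represses those genes. MLX is the partner of the glucose-responsive factors MondoA and ChREBP and can also pair with MXD1, MXD4 and MNT. Mycl is the family member known for its expression in conventional dendritic cells, and Myc is known for its role in dividing progenitors.

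The antagonists Mxd1 and Mxd4 differed most with age. Mxd4 was 2.78-fold lower in young TOM+ cDC2 and 2.21-fold lower in young TOM- DC2 than in adult TOM+ cDC2, and Mxd1 was 1.77-fold and 1.71-fold lower. Myc was 1.26-fold and 1.30-fold higher in the young groups, a call that several alternatives did not keep. Mnt did not pass the test with age, nor did the partner Max, Mxi1 and Mycl, though each of these last passed under at least 1 alternative, Mycl under several. No member passed it between the young groups.

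Gene counts per library ran from 12783252 to 22809401. The cDC2 genes Itgax, Itgam, H2-Ab1, Irf4 and Clec4a4 were detected in every library. Of the cDC1 genes, Xcr1 was at 2.43 to 3.79 TPM, the share of a gene's transcripts scaled to a fixed total per library. Cadm1 was at 17.23 to 21.21 TPM in young TOM+ cDC2, 17.44 to 20.98 TPM in young TOM- DC2 and 6.24 to 7.02 TPM in adults. Of 10 cDC1 markers, 2 were higher and 3 lower in each young group than in adults. Of all genes tested, 21% were higher and 19.5% lower in young TOM+ cDC2, and 19.4% and 16.9% in young TOM- DC2. Clec9a (at most 0.34 TPM) checks nothing here, since every mouse carried Cre in both copies of that locus. Young libraries carry the numbers 81, 91 and 92 in their deposited names, once in each group, and adult libraries 91, 92 and 95. The libraries numbered 81 stood apart from the other young libraries in Myc, Max and Mxd4, so those results are also given without them.

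Sequence upstream of Mxd4 and Mxd1 is shown because these antagonists carried the difference with age. Each run is the RefSeq window from 250 bases before to 50 bases after the annotated start (GRCm38.p6), 5′ to 3′ on the gene's strand, with the E-box CACGTG in capitals. The Mxd4 window lies at chr5:34187661-34187960 and the Mxd1 window at chr6:86669110-86669409, both on the minus strand.
Mxd4: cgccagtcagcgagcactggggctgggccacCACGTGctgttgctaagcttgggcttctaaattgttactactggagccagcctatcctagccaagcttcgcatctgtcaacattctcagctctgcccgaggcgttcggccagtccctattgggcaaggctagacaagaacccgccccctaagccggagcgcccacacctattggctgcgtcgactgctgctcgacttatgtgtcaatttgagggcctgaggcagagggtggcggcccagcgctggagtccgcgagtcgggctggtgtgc
Mxd1: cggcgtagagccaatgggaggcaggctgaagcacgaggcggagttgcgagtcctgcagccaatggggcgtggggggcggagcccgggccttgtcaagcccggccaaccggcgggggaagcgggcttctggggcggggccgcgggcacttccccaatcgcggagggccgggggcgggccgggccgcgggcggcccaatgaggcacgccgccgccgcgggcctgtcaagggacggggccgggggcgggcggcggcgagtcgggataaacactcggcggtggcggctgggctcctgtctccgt

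The Mxd4 window held 1 E-box, which starts 219 bases before the annotated start, and the Mxd1 window held none. CACGTG reads the same on both strands and was searched on both. Of the 9 members, 8 matched the promoter table, and 4 of them, Max, Mnt, Mlx and Mxd4, had an E-box in at least 1 window (50%). Among all 27025 genes with a window, 8.09% had one, and among the 11320 of 14452 tested genes that matched, too few of them for a sound background, 11.3%. The E-box of Max starts 3 bases before its annotated start, that of Mlx 40 bases before and that of Mnt 123 bases before. A match describes letters in the window and not a bound site.

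Myc, which encodes c-MYC (chr15:61985391-61990374, plus strand, GENCODE M21 on GRCm38), had 54.19, 41.74 and 39.59 TPM in young TOM+ cDC2, and 56.15, 42.67 and 43.81 TPM in young TOM- DC2. Adult TOM+ cDC2 had 33.94, 33.55 and 30.09 TPM. Every young library lay above every adult library, and in both young groups the library numbered 81 was the highest. The log2 fold change of young TOM+ cDC2 over adults was 0.34 ± 0.12 (SE, n = 3 and 3, edgeR adjusted p = 0.037), and that of young TOM- DC2 0.38 ± 0.12 (edgeR adjusted p = 0.024). Without both libraries numbered 81 the first fell to 0.21 (edgeR adjusted p = 0.13) and the second to 0.28 (edgeR adjusted p = 0.049). Without the third adult library the difference was 0.26 for young TOM+ cDC2 (edgeR adjusted p = 0.13) and 0.30 for young TOM- DC2 (edgeR adjusted p = 0.091). With all libraries kept, young TOM+ cDC2 also fell short with DESeq2 size factors (0.31, edgeR adjusted p = 0.052) and with RSEM expected counts (0.31, edgeR adjusted p = 0.055). The Myc call therefore depended on single libraries and, in young TOM+ cDC2, also on the scaling and the counts used. Its direction was the same in each of these fits.

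Mycl, which encodes L-MYC (chr4:122995652-123002485, plus strand), was the most abundant MYC gene in every library. Its levels were 83.73, 74.08 and 79.75 TPM in young TOM+ cDC2, 83.07, 65.76 and 86.37 TPM in young TOM- DC2 and 54.08, 66.81 and 43.24 TPM in adults. Adult values were lower on average, and the second adult library overlapped with young TOM- DC2. The log2 fold change was 0.40 ± 0.15 for young TOM+ cDC2 over adults (edgeR adjusted p = 0.052) and 0.36 ± 0.15 for young TOM- DC2 (edgeR adjusted p = 0.086), both short of the threshold. Without the second adult library they were 0.59 (edgeR adjusted p = 0.0065) and 0.55 (edgeR adjusted p = 0.011). Library totals in place of TMM factors also brought both past the threshold (0.60 and 0.58, edgeR adjusted p = 0.0043 and 0.0059), as did limma on log2(TPM + 1) (adjusted p = 0.019 and 0.024). Young TOM+ cDC2 also passed with no filter beyond 1 count (0.40, edgeR adjusted p = 0.03) and in the DESeq2 Wald test (0.38, DESeq2 adjusted p = 0.049). Whether Mycl passed therefore depended on the scaling, on 1 adult library and, in young TOM+ cDC2, on the filter and the test. Its sign was the same in each of these fits. The ratio of Mycl to Myc TPM was 1.78 ± 0.235 (SD, n = 3) in young TOM+ cDC2, 1.66 ± 0.268 in young TOM- DC2 and 1.67 ± 0.286 in adults, so the groups differed by less than their spread.

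Mycn, which encodes N-MYC (chr12:12936093-12941914, minus strand), was close to absent. It had 0, 0 and 2 reads in young TOM+ cDC2, 2, 1 and 6 reads in young TOM- DC2 and 0 in each adult library. At this depth no fold is given, and neither comparison with adults passed the test (edgeR adjusted p = 0.35 and 0.078). MYC-type transcript in these cells was thus nearly all Mycl and Myc, with Mycl at 59% to 66.8% of the sum of the 3 genes across the 9 libraries.

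Max, the shared partner of activators and antagonists (chr12:76937269-76962201, minus strand), varied more between libraries of a group than between groups. Its levels were 16.6, 29.78 and 24.96 TPM in young TOM+ cDC2, 16.05, 31.27 and 30.62 TPM in young TOM- DC2 and 38.45, 26.21 and 23.82 TPM in adults. The lowest value of each young group came from the library numbered 81. Log2 fold changes of -0.44 ± 0.29 and -0.32 ± 0.29 against adults did not pass the test (edgeR adjusted p = 0.25 and 0.43), and the 95% interval of the first ran from -1.08 to 0.19. Without the libraries numbered 81 these differences were -0.24 and -0.06 (edgeR adjusted p = 0.32 and 0.82). The library number was also fitted as a block, here matching adult with young libraries of the same number. Only the numbers 91 and 92 occur at both ages, so the difference with age in that fit rests on libraries with those numbers. Max then passed in young TOM+ cDC2 (-0.32, edgeR adjusted p = 0.031) and did not in young TOM- DC2 (-0.21, edgeR adjusted p = 0.15).

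Mxd1, an antagonist known to rise as cells leave the cycle and differentiate (chr6:86647042-86669161, minus strand), was the most abundant member in adults. It had 83.05, 80.04 and 94.67 TPM in young TOM+ cDC2, 87.75, 80.85 and 102.44 TPM in young TOM- DC2 and 147.26, 118.98 and 152.14 TPM in adults. Every adult library lay above every young library. The log2 fold change was -0.82 ± 0.12 for young TOM+ cDC2 against adults (edgeR adjusted p = 0.00016) and -0.78 ± 0.12 for young TOM- DC2 (edgeR adjusted p = 0.00031).

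Mxd4, a further MXD antagonist (chr5:34173883-34187720, minus strand), showed the largest difference among the members. Its levels were 14.96, 9.1 and 8.9 TPM in young TOM+ cDC2, 17.18, 13.01 and 12.4 TPM in young TOM- DC2 and 31.36, 31.85 and 22.57 TPM in adults. Adult and young values did not overlap, and the libraries numbered 81 were the highest within each young group. The log2 fold change was -1.48 ± 0.21 for young TOM+ cDC2 against adults (edgeR adjusted p = 0.00013) and -1.14 ± 0.20 for young TOM- DC2 (edgeR adjusted p = 0.00093). Without the libraries numbered 81 these were -1.76 and -1.28. Its exons share 514 bases with the antisense gene Gm42846 of the GENCODE annotation, and unstranded reads of the 2 genes cannot be told apart.

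**Figure D1:**
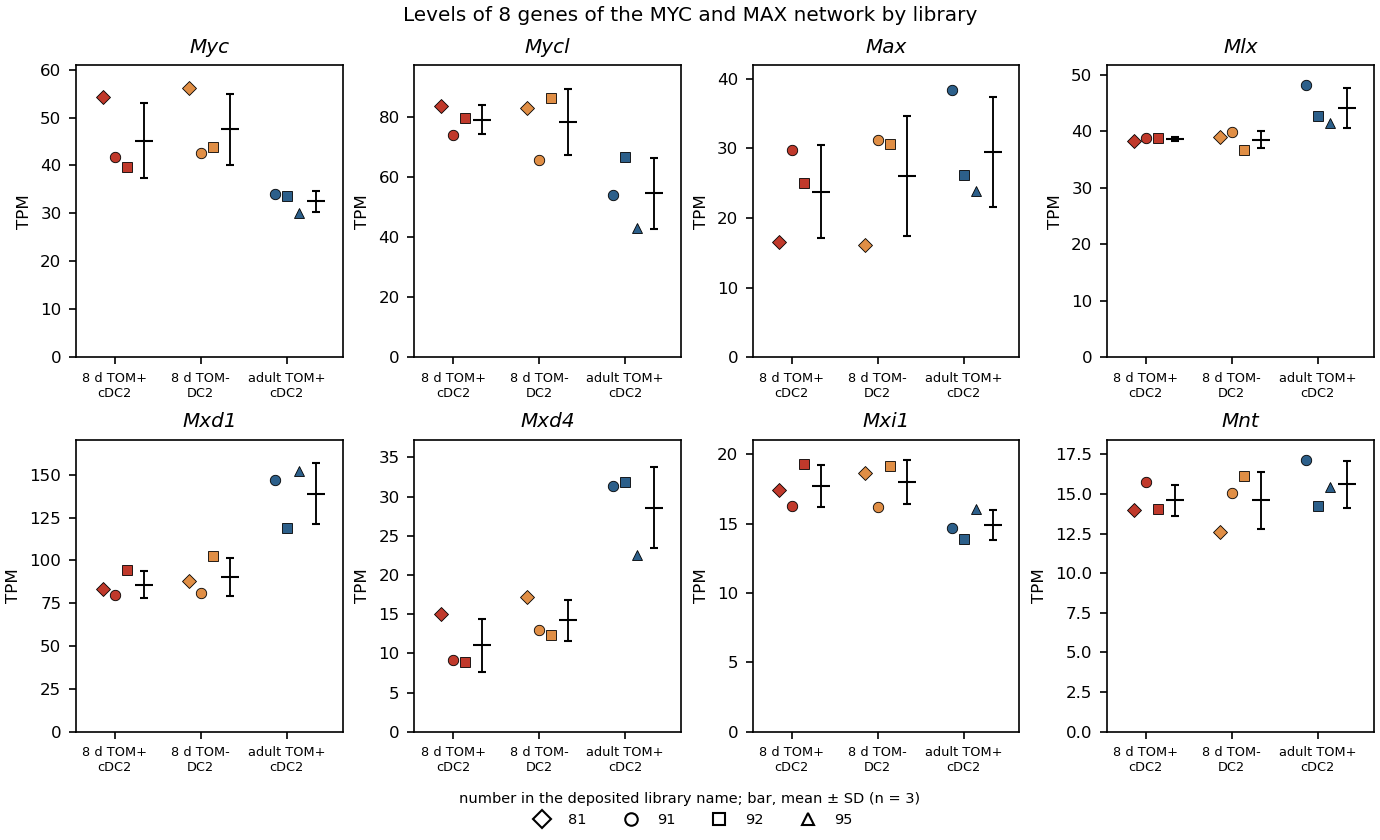
TPM of 8 members (vertical axis of each panel, from 0) in 3 libraries of each group, with symbols for the number in the library's name and bars for mean ± SD (n = 3). Mxd1 and Mxd4 were higher in every adult library than in any young one, Myc was lower, and the libraries numbered 81 (diamonds) were high in Myc and Mxd4 and low in Max.

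Mxi1, the MXD family member also called MXD2 (chr19:53310518-53375810, plus strand), had 17.43, 16.29 and 19.29 TPM in young TOM+ cDC2, 18.65, 16.2 and 19.15 TPM in young TOM- DC2 and 14.71, 13.9 and 16.05 TPM in adults. The TPM of young and adult libraries did not overlap, but counts scaled by TMM factors did. The log2 fold changes of 0.11 ± 0.10 and 0.10 ± 0.10 did not pass the test (edgeR adjusted p = 0.43 and 0.47). With library totals in place of TMM factors they were 0.30 and 0.32 (edgeR adjusted p = 0.023 and 0.018), so the outcome for Mxi1 depends on the scaling. Its exons share 194 bases with Gm10197.

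Mnt, the antagonist present in most cell types (chr11:74830920-74845725, plus strand), ranged from 12.6 to 17.15 TPM over all libraries, and the groups overlapped. Its mean was 14.6 ± 0.982 TPM (SD, n = 3) in young TOM+ cDC2, 14.6 ± 1.8 TPM in young TOM- DC2 and 15.6 ± 1.46 TPM in adults. Differences from adults of -0.23 ± 0.13 and -0.24 ± 0.13 on the log2 scale did not pass the test (edgeR adjusted p = 0.2 and 0.17).

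Mlx (chr11:101087277-101092207, plus strand) had 38.22, 38.72 and 38.79 TPM in young TOM+ cDC2, 38.9, 39.77 and 36.74 TPM in young TOM- DC2 and 48.16, 42.75 and 41.47 TPM in adults. It was the steadiest member among young libraries and was lower there than in every adult library. Log2 fold changes of -0.31 ± 0.10 and -0.36 ± 0.10 passed the test (edgeR adjusted p = 0.022 and 0.013), but not with library totals in place of TMM factors, where they were -0.11 and -0.14 (edgeR adjusted p = 0.34 and 0.26). Without the first adult library they were -0.24 and -0.28 (edgeR adjusted p = 0.095 and 0.059). Mlx exons share 385 bases with Psmc3ip on the opposite strand, a gene whose own difference from adults had the other sign (log2 fold change 1.30 and 1.02).

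Between the young groups, 0 of 9 members passed edgeR's test in either direction, and 0 had an unadjusted p under 0.05. DESeq2 and limma on log2(TPM + 1) also called 0. Of all genes tested, 0.125% were higher and 1.47% lower in TOM+ cDC2, and 1.18% also exceeded a log2 fold change of 1. Excluding Mycn, the widest 95% interval was that of Max, from -0.76 to 0.50, and Mxd4 had the largest difference, -0.34 with an interval from -0.79 to 0.12. For Myc the interval ran from -0.29 to 0.21, for Mxd1 from -0.31 to 0.21 and for Mlx from -0.17 to 0.25. The young libraries were paired by number, and with the number as a block genes past the test rose from 18 to 72 higher and from 213 to 333 lower, while members past it remained at 0.

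In young TOM+ cDC2 against adults, 1 member was higher (Myc) and 3 were lower (Mxd1, Mxd4 and Mlx), beside 21% and 19.5% of all genes tested. The same counts held for young TOM- DC2, beside 19.4% higher and 16.9% lower. Mxd4 alone also passed a log2 fold change of 1 in each comparison, as did 12.8% and 11.3% of all genes. Scaled counts of 5 of 9 members did not overlap between groups in each comparison, which is near the 51.1% and 47.6% of all genes. Both comparisons share the adult libraries and are not independent.

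**Figure D2:**
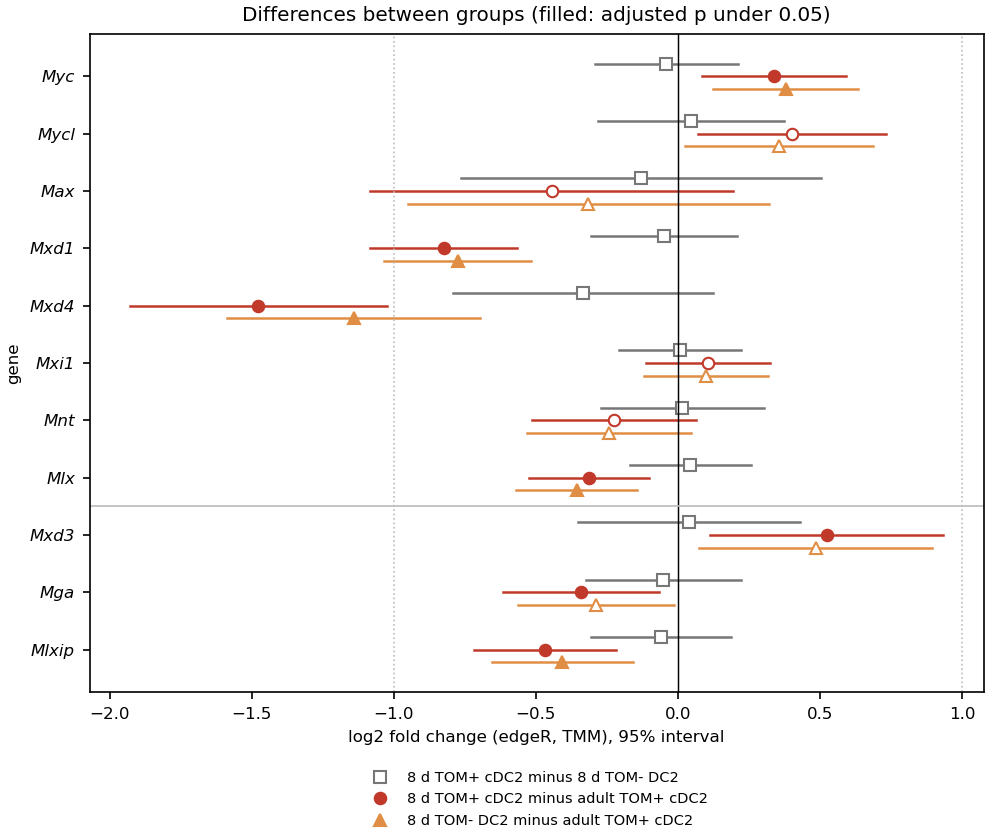
Log2 fold change (horizontal axis, edgeR with TMM factors) with its 95% interval for 8 members and, below the line, 3 other network genes, in 3 comparisons of 3 libraries against 3. Filled symbols mark an adjusted p under 0.05. Mxd1 and Mxd4 lay furthest from 0 in both comparisons with adults, and no gene was filled in the comparison of the young groups.

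On the TPM scale, which is per transcript length, the order within young TOM+ cDC2 was Mxd1 (85.9), Mycl (79.2), Myc (45.2), Mlx (38.6), Max (23.8), Mxi1 (17.7), Mnt (14.6) and Mxd4 (11.0). The ranges of Mxd1 and Mycl overlapped there, as did those of Max and Mxi1 and of Mnt and Mxd4. In adults Mxd1 (139) stood apart from Mycl (54.7), and Mlx (44.1), Myc (32.5), Max (29.5) and Mxd4 (28.6) lay between Mycl and the pair Mnt (15.6) and Mxi1 (14.9). The order of means in young TOM- DC2 was the one in young TOM+ cDC2. Mxd4 had the lowest mean of these 8 genes in the young groups, where its range overlapped with that of Mnt, and in adults its range overlapped with that of Max. With STAR counts per effective length Mnt (17.9) was below Mxd4 (18.3) in young TOM- DC2.

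The summed TPM of Myc, Mycl and Mycn was set beside that of Mxd1, Mxd4, Mxi1 and Mnt in each library, as a description of transcript and not of protein. The ratio was 1.07, 0.956 and 0.872 in young TOM+ cDC2, 1.02, 0.867 and 0.868 in young TOM- DC2 and 0.418, 0.561 and 0.356 in adults. Young libraries had about as much MYC-type as MXD-type transcript, and every adult library had less. The MXD-type sum was 129 ± 7.88 TPM (SD, n = 3) and 137 ± 12.5 TPM in the young groups and 199 ± 17.1 TPM in adults, and the MYC-type sum 124 ± 11.9, 126 ± 15.8 and 87.2 ± 13.5 TPM. A ratio within a library does not depend on how libraries are scaled.

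**Figure D3:**
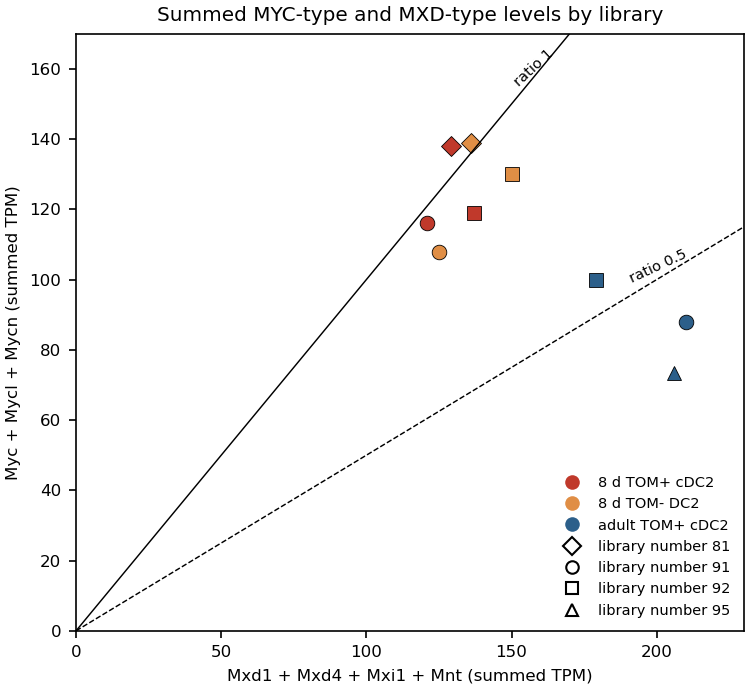
Summed TPM of Myc, Mycl and Mycn (vertical axis) against summed TPM of Mxd1, Mxd4, Mxi1 and Mnt (horizontal axis), 1 point per library, with lines of ratio 1 (solid) and 0.5 (dashed). Young libraries lay near the solid line (0.867 to 1.07), and adult libraries near the dashed line (0.356 to 0.561).

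Of 4 other genes of the network, Mxd3, Mga and Mlxip were tested. Mxd3, an MXD antagonist known from S phase cells, had 16.72, 19.28 and 19.22 TPM in young TOM+ cDC2, 16.54, 17.84 and 19.28 TPM in young TOM- DC2 and 9.85, 15.4 and 8.66 TPM in adults, opposite in direction to Mxd1 and Mxd4. Its log2 fold change against adults was 0.52 ± 0.19 (edgeR adjusted p = 0.043) and 0.48 ± 0.19 (edgeR adjusted p = 0.064). Mlxip, which encodes MondoA, was lower in young TOM+ cDC2 (log2 fold change -0.47, edgeR adjusted p = 0.0059) and young TOM- DC2 (-0.41, edgeR adjusted p = 0.014). Mga, a MAX partner of the PRC1.6 repressor complex, was lower in young TOM+ cDC2 (-0.34, edgeR adjusted p = 0.047) and did not pass in TOM- DC2 (-0.29, edgeR adjusted p = 0.093). With library totals in place of TMM factors neither Mlxip nor Mga passed. Mlxipl, which encodes ChREBP, had at most 2 reads in any library. Exons of Mxd3 share 105 bases with Prelid1, and those of Mlxip 267 bases with Gm15747.

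The MYC-induced targets are 64 genes of the nucleolus, biosynthesis and division. In young TOM+ cDC2 39 were higher than in adults, 2 were lower and 23 did not pass the test, with a median log2 fold change of 0.39 beside 0.05 over all genes tested, and in young TOM- DC2 35 were higher, 1 was lower and 28 did not pass, with a median of 0.34 beside 0.07. Of all genes tested 21% and 19.4% were higher. With library totals in place of TMM factors 54 and 50 targets were higher, with medians of 0.59 and 0.55 beside 0.25 and 0.29 over all genes. Examples are the division kinases Plk1 (28.1 ± 0.996 against 9.68 ± 2.88 TPM, log2 fold change 1.37 ± 0.20, edgeR adjusted p = 0.00015) and Plk4 (29.6 ± 2.75 against 12 ± 0.388 TPM, 1.14 ± 0.11), the DNA repair enzyme Ung (1.26 ± 0.23) and Tmem97 (1.16 ± 0.20). Those lower in young TOM+ cDC2, named after their values were seen, were Odc1, the first enzyme of polyamine synthesis (134 against 230 TPM, log2 fold change -0.97), and the phosphatase Dusp2 (-0.31), and Odc1 was the 1 lower in young TOM- DC2 (-0.82). Without 6 replication and division genes (Cdk4, Mcm4, Mcm5, Plk1, Plk4 and Ung), a choice made after seeing the data, 33 of 58 were higher in young TOM+ cDC2 (median 0.35) and 29 of 58 in young TOM- DC2 (median 0.30). An E-box lay in a window of 16 of 58 matched targets (27.6%), beside 8.09% of all genes with a window and 11.3% of the tested genes that matched.

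Between the young groups 0 of 64 targets passed edgeR's test, DESeq2's or limma's, and 5 had an unadjusted edgeR p under 0.05. The log2 fold change was above 0 for 56 of 64, with a median of 0.11 beside 0.00 over all genes.

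S and G2/M phase markers were mostly higher in young cells, as were the targets, whereas Mxd1 and Mxd4 were lower. Of 15, 14 were higher in each young group than in adults, beside 21% and 19.4% of all genes. Their summed level was 2290 to 2400 TPM in young TOM+ cDC2, 2100 to 2220 TPM in young TOM- DC2 and 872 to 1080 TPM in adults. In bulk RNA, fewer cells of a kind and less RNA per cell cannot be told apart, and the part of cycling cells in the differences of Myc, Mxd1, Mxd4 and the targets was not tested.

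The 8 genes listed as repressed by MYC through MIZ1 are called MIZ1-repressed here. That route is not established for each of them and was not tested. Of these 8, 3 were lower in young TOM+ cDC2 than in adults and 2 in young TOM- DC2, and 0 were higher, beside 19.5% and 16.9% of all genes lower. The medians of -0.65 and -0.49 became -0.45 and -0.28 with library totals, and -0.27 and -0.26 with limma on log2(TPM + 1). Ndrg1, a stress and differentiation gene, was 7.77 ± 1.45 TPM in young TOM+ cDC2, 10.7 ± 1.69 TPM in young TOM- DC2 and 37 ± 1.73 TPM in adults (log2 fold change -2.37 ± 0.16 and -1.96 ± 0.15, edgeR adjusted p = 6e-07 and 2.6e-06). Gadd45b, a stress response gene, was lower in young TOM+ cDC2 (532 ± 119 against 928 ± 80.5 TPM, -0.92 ± 0.22). The cell cycle inhibitor Cdkn2b, named after its values were seen because its average count of 46.3 fell short of the limit of 50, was at 1.88 and 1.69 TPM in the young groups and 7.78 TPM in adults. Cdkn1a, the inhibitor p21, was at 161, 159 and 188 TPM and did not pass the test (edgeR adjusted p = 0.22 and 0.18). Between the young groups 0 of 8 passed without the block, and Ndrg1 (-0.41, edgeR adjusted p = 0.041) and Gadd45b (-0.31, edgeR adjusted p = 0.047) passed with the library number as a block.

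**Figure D4:**
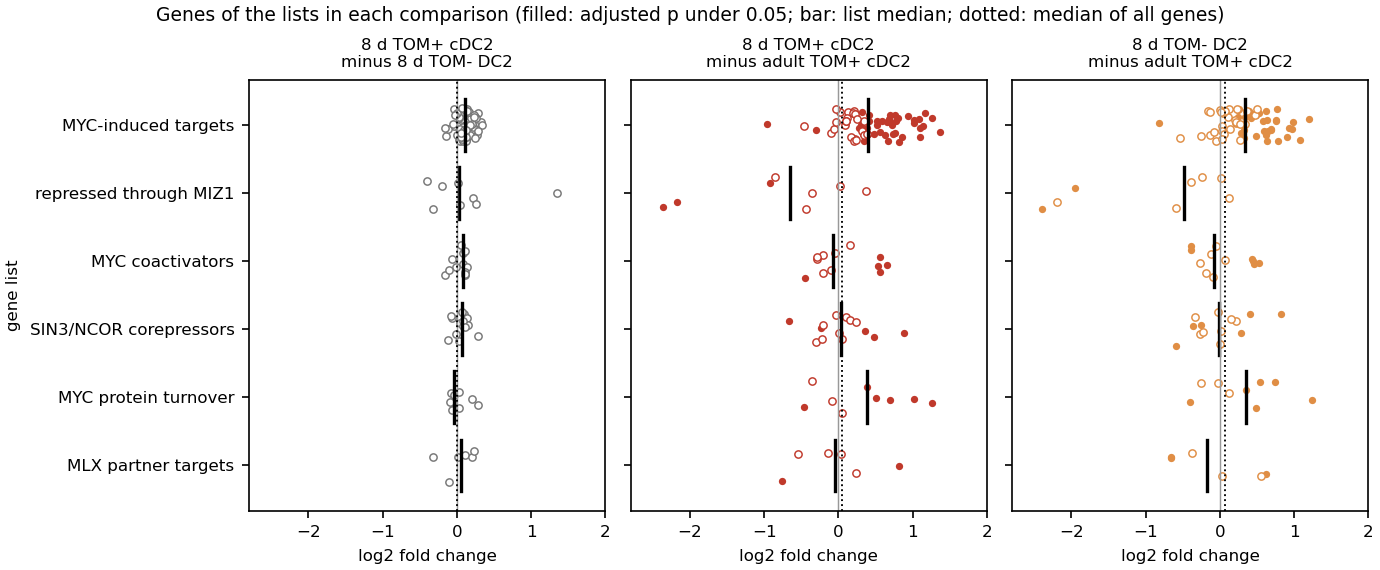
Log2 fold change (horizontal axis) of each gene of 6 lists in 3 comparisons, filled where the adjusted p was under 0.05, with a bar at the list's median and a dotted line at the median of all genes tested. MYC-induced targets lay mostly right of the dotted line in the comparisons with adults (medians 0.39 and 0.34), and genes listed as repressed through MIZ1 mostly left (medians -0.65 and -0.49).

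Of 12 MYC coactivators, 4 were higher in both young groups than in adults, beside 21% and 19.4% of all genes, namely the ATPases Ruvbl1 (76.2 ± 5.53, 74.7 ± 8.44 and 46.8 ± 0.901 TPM in young TOM+, young TOM- and adult cells, log2 fold change 0.66 and 0.52) and Ruvbl2 (0.56 and 0.45), the actin-related subunit Actl6a (0.53 and 0.43) and the histone methyltransferase subunit Wdr5 (0.56 and 0.46). The acetyltransferase Kat5 was lower in both (-0.46 and -0.38), and Zbtb17, which encodes MIZ1, was lower in young TOM- DC2 (-0.39). The list's median log2 fold changes of -0.07 and -0.07, beside 0.05 and 0.07 over all genes, became 0.13 and 0.15 with library totals in place of TMM factors.

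Of 14 genes of the SIN3 and NCOR corepressors that MXD proteins recruit, 3 were higher and 2 lower in young TOM+ cDC2, and 3 higher and 3 lower in young TOM- DC2. These counts lie near the shares of all genes, 21% higher and 19.5% lower in the first comparison and 19.4% and 16.9% in the second. The histone-binding subunit Rbbp7 was highest above adults (488 ± 32.1 and 476 ± 35.5 against 240 ± 17.3 TPM, log2 fold change 0.88 and 0.82), followed by Rbbp4 (0.48 and 0.40). The deacetylase Hdac2 was higher in young TOM+ cDC2 (0.36) and Hdac1 in young TOM- DC2 (0.28). The scaffold partner Arid4a was lower in both (51.6 ± 0.311 and 55.2 ± 1.82 against 74.9 ± 6.59 TPM, -0.67 and -0.60), as was the scaffold Sin3a (-0.23 and -0.26), and Sap30 was lower in young TOM- DC2 (-0.36). The median was 0.03 and -0.01. With library totals in place of TMM factors the split was 6 higher and 1 lower in each comparison, and the medians were 0.23 and 0.21.

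Of 9 genes that set MYC protein stability, 5 were higher and 1 lower in each young group than in adults, beside 21% and 19.4% of all genes higher and 19.5% and 16.9% lower. The mitotic kinase Aurka, known to stabilise N-MYC, had 76.1 ± 11.3 and 76.9 ± 11.3 TPM in the young groups and 29.2 ± 5.98 TPM in adults (log2 fold change 1.26 and 1.24). The ubiquitin ligase subunits Skp2 (1.02 and 0.74) and Fbxl14 (0.70 and 0.49) and the deubiquitinase Usp28 (0.51 and 0.54) were higher too, and the ligase Huwe1 was lower (-0.47 and -0.41). The list's medians were 0.38 and 0.35, and 0.58 and 0.57 with library totals.

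Of 6 tested targets of the MLX partners, 1 was higher and 1 lower in young TOM+ cDC2, beside 21% and 19.5% of all genes. In young TOM- DC2 1 was higher and 2 were lower, beside 19.4% and 16.9%. The others did not pass the test. The lipid synthesis enzyme Fasn was higher in young cells (24 ± 1.32 and 21.2 ± 3.67 against 12.3 ± 1.23 TPM, log2 fold change 0.82 and 0.61). The glucose-uptake regulator Arrdc4 was lower (48.7 ± 2 and 51.9 ± 6.46 against 66.3 ± 8 TPM, -0.76 and -0.65), and its relative Txnip was lower in young TOM- DC2 (-0.66, edgeR adjusted p = 0.039). The TPM of Txnip, 133 ± 50.6 in young TOM- DC2 and 186 ± 8.42 in adults, overlapped between these groups. The list's medians were -0.05 and -0.17, and 0.15 and 0.05 with library totals in place of TMM factors.

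The scaling of libraries bears on small differences with age. TMM factors were 1.02 to 1.08 in young and 0.894 to 0.928 in adult libraries, and with library totals alone the median log2 fold change of all genes moved from 0.05 to 0.25 for young TOM+ cDC2 and from 0.07 to 0.29 for young TOM- DC2. The share of higher genes among those past the test moved from 51.9% to 72.4% and from 53.5% to 77.3%. Relative to the shifted median, Mxd4 was at -1.52 and -1.21, Mxd1 at -0.87 and -0.85, Mlx at -0.36 and -0.42, Myc at 0.29 and 0.31, and Mycl at 0.36 and 0.29.

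Other cell type markers differed between groups as well. Summed ILC3 markers were 26.8 to 35.5 TPM in young TOM- DC2, 4.64 to 5.55 TPM in young TOM+ cDC2 and 5.85 to 7.87 TPM in adults, and red pulp macrophage markers 479 to 538, 363 to 394 and 264 to 329 TPM. The 10 cDC2 markers summed to 61700 to 65900 TPM in young TOM+ cDC2, 58800 to 63600 TPM in young TOM- DC2 and 92600 to 95600 TPM in adults. In each young group 7 of 10 were lower, beside 19.5% and 16.9% of all genes, and 2 were higher, beside 21% and 19.4%. The sum therefore does not stand for every cDC2 gene. H2-Ab1 was at 16789.57 to 16868.37 TPM in young TOM+ cDC2, 15674.32 to 16892.77 TPM in young TOM- DC2 and 27690.55 to 29642.24 TPM in adults. Itgam went the other way, at 125.78 to 168.49, 128.44 to 166.19 and 73.03 to 86.22 TPM. The cDC1 markers summed to 408 to 448, 412 to 455 and 383 to 419 TPM. Monocyte markers summed to 432 to 454, 399 to 442 and 491 to 520 TPM, and plasmacytoid dendritic cell markers to 156 to 171, 152 to 178 and 165 to 202 TPM. Of 6 monocyte genes, 2 were higher and 2 lower in young TOM+ cDC2 than in adults, and 0 higher and 1 lower in young TOM- DC2, beside the same shares of all genes. B cell markers (106 to 157 against 173 to 180 TPM) and neutrophil markers (4.52 to 5.4 against 8.25 to 10.7 TPM) did not overlap between young TOM+ cDC2 and adults. The neutrophil sum does not stand for its list: of 4 genes tested, 1 was lower in young TOM+ cDC2 and 3 had a log2 fold change above 0. T cell markers (3.76 to 7.97 against 1.27 to 1.31 TPM) and erythroid markers (20.2 to 700 against 1.39 to 13.5 TPM) did not overlap between young TOM- DC2 and adults. Their part in the members' differences was not tested.

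The genes whose levels followed a member most closely over the 9 libraries, by Pearson correlation of log2(TPM + 1) among 7572 genes, are given as a description, since libraries of a group share age and preparation. For Myc they were Traf3ip3 (r = 0.995), Slc45a4 (0.988), Sephs2 (0.988), Daglb (0.982) and Copb2 (0.981). For Mycl they were Pom121 (0.977), Slc43a2 (0.97), Cct7 (0.968), Ahcyl2 (0.968) and Mapk7 (0.966). For Mxd4 they were Igtp (0.987), Ly9 (0.985), Tbrg1 (0.985), Xaf1 (0.984) and Esam (0.983).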

How the data were processed

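The authors aligned reads to mm10 with STAR and estimated transcripts with RSEM (versions not given in the sources used here). They deposited, for each of 9 libraries, read counts per gene from STAR and a table of RSEM expected counts, TPM and FPKM, of which FPKM was not used here. SMART-seq libraries do not mark strand, so the deposited unstranded count column was taken, without its 4 summary lines. Levels are the deposited TPM. Counts of genes with an average of at least 1 were tested with edgeR 4.0.16 (quasi-likelihood, TMM factors, all 3 groups in 1 fit) in R 4.3.3, and p-values were adjusted by Benjamini-Hochberg over 14452 genes. "Higher" and "lower" mean an adjusted p under 0.05, and "called" also a log2 fold change beyond 1. Alternatives used DESeq2 1.42.0, limma 3.58.1 on log2(TPM + 1) and log2(TPM + 0.1), rounded expected counts, other scalings and filters, and left-out libraries. The fitting was tested on simulated data.

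The members, the 7 pathway lists and the 11 marker lists were chosen with earlier results of these data known. The text names every member and other network gene. From each pathway list it names up to 4 genes with the largest change among those past the test with an average count of at least 50 and groups that did not overlap, and for Myc, Mycl and Mxd4 the 5 genes of highest correlation. Other genes, where a count was 5 or fewer, were named after their values were seen, and 1 gene is not reported here. Promoter windows came from RefSeq, and gene positions from GENCODE M21. Libraries are the replicates, and young ones come from pooled spleens, so p-values measure the spread between these libraries. The numbers in the library names paired the young groups: deviations from the group means of same-numbered libraries correlated at 0.621, 0.333 and 0.426 over 11818 genes. With adults the correlations were 0.0121 to 0.0806, and the main tests did not take the numbers as pairs there. The block fits against adults did match libraries by number, which only 91 and 92 allow, so their results rest on a pairing with these weak correlations.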

Additional observations from a re-analysis of the deposited data

How the results depend on the processing

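Mxd1 and Mxd4 stayed lower in young cells and past the threshold under every alternative run. Myc kept its sign against adults, but young TOM+ cDC2 had 0 members higher with DESeq2 size factors, expected counts or both libraries numbered 81 left out, 2 (Myc and Mycl) with no filter, the DESeq2 Wald test or either limma fit, and 3 (also Mxi1) with library totals (0 to 1 leaving out single libraries). Young TOM- DC2 had 3 with library totals, 2 with either limma fit (0 to 2 leaving out single libraries), and 0 members called with library totals or limma on log2(TPM + 1). Between the young groups, where no member passed, Mxi1 reversed to -0.0161 with library totals and to -0.025 and -0.0262 in the limma fits, and Mnt to -0.0043 with library totals and -0.0721 without the libraries numbered 81. Leaving out single libraries gave Myc -0.152 to 0.0433, Mycl -0.044 to 0.1439, Max -0.4003 to 0.0964, Mxd1 -0.1373 to 0.0644, Mxi1 -0.0799 to 0.0767 and Mnt -0.119 to 0.1096 there, and Mxi1 -0.0072 to 0.1556 in young TOM+ cDC2 against adults. For young TOM+ cDC2 the other network genes past the test numbered 1 with library totals or either limma fit (1 to 3 leaving out single libraries), coactivators 8 without the libraries numbered 81, and turnover genes 3 to 6 leaving out single libraries. For young TOM- DC2 other network genes numbered 2 without the libraries numbered 81 (0 to 2 leaving out single libraries), corepressors 3 to 7, turnover genes 3 to 6, and MIZ1-repressed genes 4 with DESeq2 size factors. With the replicate block, which pairs only the young groups, 2 MIZ1-repressed genes passed between them. The block fit against adults instead matched adult with young libraries by number, which only 91 and 92 allow. The number 81 occurs only in young libraries and 95 only in an adult one. The difference with age in that fit therefore rests on libraries numbered 91 and 92. In the block fit, genes past the test rose from 3039 to 3558 higher and from 2822 to 3361 lower for young TOM+ cDC2. For young TOM- DC2 they rose from 2809 to 3412 and from 2438 to 3129. Young TOM+ cDC2 there had 10 coactivators, 9 corepressors and 5 MLX-partner targets past the test. Myc was no longer past it (0.16, edgeR adjusted p = 0.1), and Mycl (0.24, edgeR adjusted p = 0.012) and Max (-0.32, edgeR adjusted p = 0.031) were newly past it. Young TOM- DC2 had 2 members higher, Myc and Mycl (0.19, edgeR adjusted p = 0.044), 2 other network genes, 4 MIZ1-repressed genes and 6 MLX-partner targets. Levels from STAR counts per effective length were, in young TOM+, young TOM- and adult cells, 55.5, 58.4 and 38.4 for Myc, 106, 112 and 166 for Mxd1, 20.9, 21.2 and 17.1 for Mxi1, 17.8, 17.9 and 18.3 for Mnt and 47.5, 47 and 51.6 for Mlx, with Mycl at 96.9 and 95.8 in the young groups and Mxd4 at 18.3 in young TOM- and 34.6 in adult cells. Adding Mxd3 gave MYC-type to MXD-type ratios of 0.844 and 0.813 in the young groups. The broader motif CANNTG lay in windows of 75.0% of all genes, 87.5% of members and 63.8% of targets. The cause of these changes was not tested.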
